A study of Mus musculus with 23 samples.

Results

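The 8 genes described here, Gas5, Dancr, Snhg1, Snhg3, Snhg5, Snhg6, Snhg8 and Snhg12, are long non-coding RNA genes that carry small nucleolar RNAs (snoRNAs) within them. They were chosen by gene symbol from 18512 gene symbols in the count tables, with earlier results of these data known. All 8 were among the 12195 symbols with enough counts to be tested. The tables cover the head of the pancreas from 23 male and female C57BL/6 mice aged 6 to 8 weeks. A non-injured baseline group had 8 mice (4 female, 4 male). In the remaining mice, acute pancreatitis was induced with caerulein, a cholecystokinin analog that overstimulates acinar cells, given as 8 hourly intraperitoneal injections of 50 µg/kg on 2 consecutive days. Of these, 8 mice (4 female, 4 male) were collected at day 7 and 7 mice (3 female, 4 male) at day 14, where day 0 was set 1 day after the last injection. Another day 14 mouse was not analysed here. The labels and methods do not say whether baseline mice received vehicle injections, and both post-injury groups were compared with the same 8 baseline mice.

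SnoRNAs guide chemical modification and processing of ribosomal RNA and other RNAs in the nucleolus. H/ACA snoRNAs guide pseudouridylation and C/D snoRNAs guide ribose methylation. Most vertebrate snoRNAs are not transcribed from genes of their own: they lie in introns of a host gene, and are trimmed out of the excised intron after splicing. In a non-coding host the spliced exons do not encode a protein of known function, and for several hosts, Gas5 among them, the spliced RNA is removed by nonsense-mediated decay when it is translated. Gas5 and other hosts begin with a terminal oligopyrimidine tract, a start sequence shared with ribosomal protein genes, and Gas5 was named for its accumulation in growth-arrested cells. Spliced host RNA and mature snoRNA are therefore separate products of one transcript.

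The GENCODE vM21 annotation (GRCm38, the same assembly as mm10) places Gas5 at chr1:161034422-161038539 on the plus strand and Dancr at chr5:74093060-74095406, also plus. Snhg1 lies at chr19:8723475-8726443 (plus) and Snhg12 at chr4:132308623-132311024 (plus). On the minus strand are Snhg3 at chr4:132348014-132353686, Snhg5 at chr9:88521050-88522929, Snhg6 at chr1:9941959-9944118 and Snhg8 at chr3:123507552-123508404. Within these spans, Gas5 holds 9 snoRNA positions, Snhg1 holds 8, Snhg12 holds 4, Snhg3 and Snhg5 hold 2 each, and Dancr, Snhg6 and Snhg8 hold 1 each. Of the 112 snoRNA symbols in the tables, 9 are nested in these hosts, and the nested snoRNAs of Snhg3 and Snhg5 are not among them.

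In 2 of the hosts, the annotated transcript linked to RefSeq contains the snoRNA inside an exon, so that a fragment of the snoRNA also matches the host's exon. Both of these transcripts are annotated as retaining an intron. In Dancr, 1 transcript without this label also has an exon over Snora26, whereas Snhg8 has no such transcript over Snora24. These stretches are shown because the results for both genes turn on this overlap. Capitals mark the snoRNA and lower case marks 60 bases of host transcript on either side, 5′ to 3′. In Dancr, Snora26 (121 bases, chr5:74093530-74093650, plus strand) takes up bases 230 to 350 of a transcript of 1036 bases. In Snhg8, Snora24 (130 bases, chr3:123507937-123508066, minus strand) takes up bases 265 to 394 of a transcript of 776 bases.
Snora26 in Dancr: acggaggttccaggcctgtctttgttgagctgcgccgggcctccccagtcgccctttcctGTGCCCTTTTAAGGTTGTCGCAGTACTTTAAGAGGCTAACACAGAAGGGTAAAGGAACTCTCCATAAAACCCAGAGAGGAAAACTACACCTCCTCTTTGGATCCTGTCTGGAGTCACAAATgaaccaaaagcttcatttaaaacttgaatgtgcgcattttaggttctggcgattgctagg
Snora24 in Snhg8: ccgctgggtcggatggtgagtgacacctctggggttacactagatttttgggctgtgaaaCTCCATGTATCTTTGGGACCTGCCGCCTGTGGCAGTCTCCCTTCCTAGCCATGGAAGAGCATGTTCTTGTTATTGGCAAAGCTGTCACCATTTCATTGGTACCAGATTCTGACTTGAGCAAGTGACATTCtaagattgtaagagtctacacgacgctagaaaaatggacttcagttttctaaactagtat
The RefSeq-linked transcript of Gas5 likewise has exon sequence over nested snoRNAs, but those were not among the symbols in the tables.

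The other nested snoRNAs with values used below are shown with their class motifs in capitals. In the H/ACA snoRNAs the capitals mark ACA placed 3 bases from the 3′ end, and in the C/D snoRNAs they mark TGATGA (box C) in the first 25 bases and CTGA (box D) in the last 20, read on the snoRNA strand. The 3 H/ACA snoRNAs of Snhg12 come first, followed by 1 C/D snoRNA each from Gas5, Snhg6 and Snhg1.
Snora16a in Snhg12: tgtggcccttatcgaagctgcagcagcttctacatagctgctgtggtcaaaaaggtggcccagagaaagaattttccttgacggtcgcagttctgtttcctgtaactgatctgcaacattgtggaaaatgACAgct
Snora44 in Snhg12: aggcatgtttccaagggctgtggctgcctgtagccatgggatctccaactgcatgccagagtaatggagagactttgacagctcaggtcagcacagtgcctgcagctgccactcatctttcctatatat
Snora61 in Snhg12: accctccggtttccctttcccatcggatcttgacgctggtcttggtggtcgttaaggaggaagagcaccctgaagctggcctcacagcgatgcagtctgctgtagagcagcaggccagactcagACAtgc
Snord47 in Gas5: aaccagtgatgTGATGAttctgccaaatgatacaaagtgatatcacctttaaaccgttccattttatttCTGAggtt
Snord87 in Snhg6: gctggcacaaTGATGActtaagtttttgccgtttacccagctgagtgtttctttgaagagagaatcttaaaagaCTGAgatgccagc
Snord22 in Snhg1: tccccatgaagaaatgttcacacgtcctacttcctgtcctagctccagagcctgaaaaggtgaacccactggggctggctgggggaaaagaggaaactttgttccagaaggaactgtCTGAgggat
Snora44 has ATA in place of ACA, and no TGATGA was found in the first 25 bases of Snord22. Among all 1507 snoRNA transcripts in the annotation, 18.3% had ACA at this position and 20.6% had both C/D motifs. Snora16a lies at chr4:132309465-132309600, Snora44 at chr4:132309941-132310069 and Snora61 at chr4:132310240-132310369, all plus strand. Snord47 lies at chr1:161038082-161038158 (plus), Snord87 at chr1:9942463-9942549 (minus) and Snord22 at chr19:8725866-8725991 (plus).

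The libraries held 7059890 to 9567446 counts each, in which member genes had between 8 and 1074 counts. The 20 most abundant symbols took 69.4% ± 1.48 (SD, n = 8) of counts at baseline, 60.3% ± 2.43 (n = 8) at day 7 and 65.0% ± 0.869 (n = 7) at day 14. Levels are given as CPM, counts per 1000000 after trimmed-mean (TMM) scaling, which corrects for such shifts in composition. In 4 mice (1 baseline, 2 day 7, 1 day 14) the lymphocyte marker score, a mean log2 CPM, lay between 2.57 and 3.46, while the other 19 mice lay at or below 0.97, so results are also given without these 4 where the call differs. Acinar markers, which define the labelled tissue, were present in every mouse, with a summed level of 167808 to 424263 CPM.

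At baseline, Gas5 had the highest level of the 8 genes. Divided by the median length of its spliced transcripts, its level was 120 ± 13.3 CPM per kb (SD, n = 8). Snhg1 followed with 15.96 ± 3.19 CPM per kb, then Dancr with 10.1 ± 1.41, Snhg8 with 9.35 ± 1.34, Snhg6 with 8.90 ± 2.20 and Snhg3 with 5.53 ± 1.22. Snhg12, at 3.53 ± 1.19, and Snhg5, at 3.34 ± 1.17, were lowest among the counts as deposited. Dancr, Snhg8 and Snhg6 did not differ from each other beyond their spread, nor did Snhg12 and Snhg5. The place of Dancr rests on its nested snoRNA: with the Snora26 count subtracted, as described further on, Dancr was at 0.879 ± 0.121 CPM per kb over the same length, below all other members. Snhg8 without Snora24 was at 6.94 ± 1.56 CPM per kb. When the length of all exons combined was used instead, Gas5 stayed first at 15.97 ± 1.77 CPM per kb, but Snhg1 dropped to the fifth place with 2.96 ± 0.591, so the order below Gas5 depends on which transcripts are counted.

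**Figure D1:**
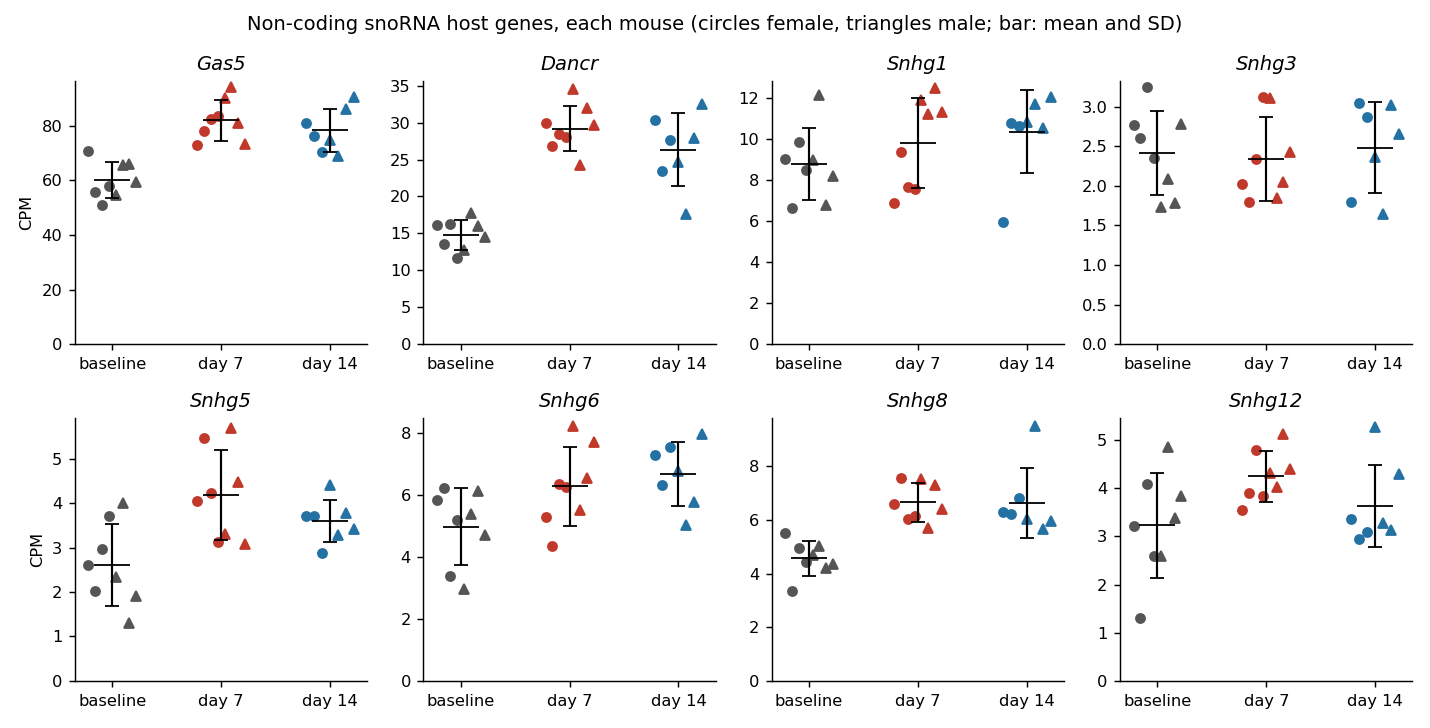
Level of each host gene in CPM (vertical axis, from 0) in every mouse at baseline (n = 8), day 7 (n = 8) and day 14 (n = 7), with circles for female and triangles for male mice and bars for the mean and SD. All day 7 values of Gas5, Dancr and Snhg8 lie above all baseline values, while the groups overlap for Snhg1, Snhg3, Snhg5, Snhg6 and Snhg12.

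The first comparison asked which of these genes differed from baseline 7 days after injury, when the tissue was in recovery. Gas5, Dancr, Snhg5 and Snhg8 rose, and none of the 8 fell. The rises ran from 1.36-fold for Gas5 to 1.98-fold for the Dancr count, and the latter followed the snoRNA inside Dancr, as described further on. These 4 of 8 genes passed an adjusted p of 0.05 in the edgeR quasi-likelihood test, against 8.86% of all tested genes called higher at day 7. With a minimum fold of 1.5 added, 2 of 8 passed (Dancr and Snhg5), against 3.82% of all genes. The median log2 fold change of the 8 genes was 0.43, and that of all tested genes was 0.02.

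Gas5 lay at 50.9, 58.6 and 70.6 CPM (lowest, median and highest mouse) at baseline and at 73.0, 81.8 and 94.2 CPM at day 7. No day 7 mouse fell within the baseline range. The log2 fold change was 0.45 ± 0.07 (SE, adjusted p = 6.75e-05, edgeR).

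Dancr, whose spliced RNA has been studied as a suppressor of differentiation, lay at 11.6, 15.2 and 17.7 CPM at baseline and 24.3, 29.0 and 34.5 CPM at day 7. Here too the groups did not overlap. The log2 fold change was 0.98 ± 0.11 (SE, adjusted p = 3.21e-07, edgeR). The call was lost when its nested Snora26 was subtracted (-0.16, adjusted p = 0.681, edgeR).

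Snhg8 lay at 3.33, 4.56 and 5.53 CPM at baseline and 5.70, 6.49 and 7.57 CPM at day 7. The groups were again fully separate, and the log2 fold change was 0.54 ± 0.12 (SE, adjusted p = 0.00180, edgeR). The call was lost when its nested Snora24 was subtracted (0.38, adjusted p = 0.0695), and the groups then overlapped. A separation of this kind, with every day 7 mouse above every baseline mouse, was seen for 3 of 8 members and for 1.16% of all tested genes.

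Snhg5, host of a pair of C/D snoRNAs, lay at 1.29, 2.48 and 3.99 CPM at baseline and 3.08, 4.14 and 5.70 CPM at day 7. Of the 8 day 7 mice, 5 were above every baseline mouse and the rest overlapped. The log2 fold change was 0.68 ± 0.19 (SE, adjusted p = 0.00992, edgeR), the second largest of the 8 genes. Without the 4 mice with high lymphocyte scores it was 0.55 (adjusted p = 0.0640), so the call did not hold in the remaining 19 mice. The part of lymphocytes in this result was not tested beyond that, although with the score as a covariate the log2 fold change was 0.64 (adjusted p = 0.00764).

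The other 4 genes did not pass the test at day 7. For Snhg12 the log2 fold change was 0.41 with a 95% interval of 0.06 to 0.75 (adjusted p = 0.0918, edgeR), and it would have passed without baseline mouse 3 (0.50, adjusted p = 0.0443) or without baseline mouse 6 (0.49, adjusted p = 0.0485), and it passed when counts were scaled to the total without the 20 most abundant genes (0.49, adjusted p = 0.0408). Snhg6 had 0.33 with an interval of 0.02 to 0.65 (adjusted p = 0.131), with 0.41 (adjusted p = 0.0439) under the same scaling, and 5 of its 8 day 7 mice were above every baseline mouse. Snhg1, with 8 nested snoRNA positions, had 0.14 with an interval of -0.11 to 0.40 (adjusted p = 0.451). Snhg3, host of Snora73a and Snora73b, had -0.04 with an interval of -0.41 to 0.33 (adjusted p = 0.897). Snhg3 had 11 to 31 counts per mouse in these groups, and its interval reached well to both sides of 0.

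**Figure D2:**
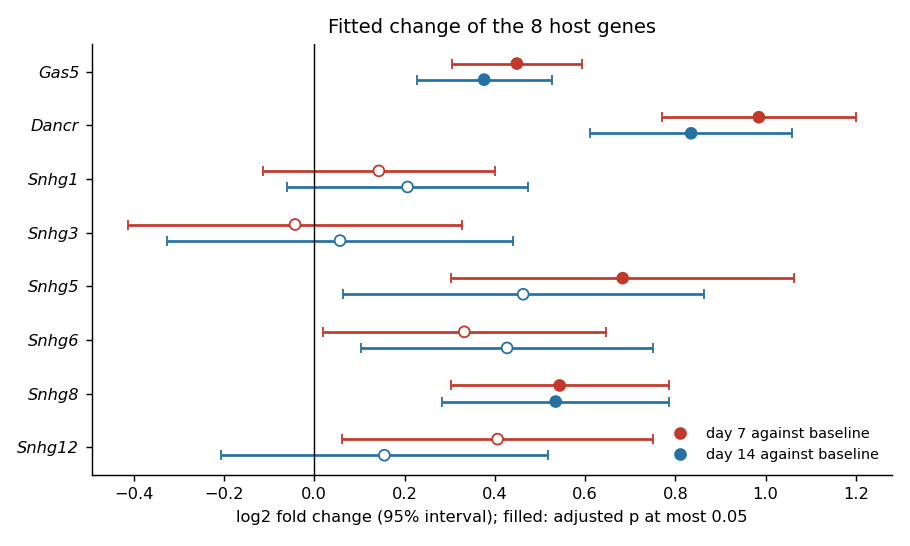
Fitted log2 fold change against baseline (horizontal axis) of the 8 host genes at day 7 (red) and day 14 (blue), with 95% intervals. Filled points passed an adjusted p of 0.05 in edgeR: 4 genes at day 7 and 3 at day 14, all above 0.

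At day 14 the same question was asked of the later time point. The counts of Gas5, Dancr and Snhg8 rose relative to baseline, and none of the 8 fell. These 3 of 8 passed the test, against 1.05% of all tested genes called higher at day 14. The Dancr count alone (1 of 8) also reached 1.5-fold, against 0.697%. Its rise again followed the snoRNA inside Dancr, as described further on. The median log2 fold change was 0.40 for the 8 genes and 0.01 for all genes.

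Gas5 lay at 68.8, 76.2 and 90.3 CPM at day 14, and 5 of 7 mice were above every baseline mouse. Its log2 fold change was 0.38 ± 0.07 (SE, adjusted p = 0.00445, edgeR).

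Dancr lay at 17.6, 27.6 and 32.6 CPM, with 6 of 7 mice above every baseline mouse, and its log2 fold change was 0.83 ± 0.11 (SE, adjusted p = 4.94e-05, edgeR). The call was lost when its nested Snora26 was subtracted (-0.32, adjusted p = 0.655, edgeR).

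Snhg8 lay at 5.65, 6.20 and 9.49 CPM, with all 7 mice above every baseline mouse. It was the single member with no overlap, against 0.435% of all genes. The log2 fold change was 0.53 ± 0.12 (SE, adjusted p = 0.0194, edgeR), and the call was lost without day 14 mouse 19 (0.53, adjusted p = 0.0521) and with Snora24 subtracted (0.35, adjusted p = 0.303).

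Snhg5 at day 14 lay at 2.87, 3.70 and 4.41 CPM, a narrower range than at day 7, and 1 of 7 mice was above every baseline mouse. Its log2 fold change of 0.46 had an interval of 0.06 to 0.86 (adjusted p = 0.284, edgeR). Snhg6 had 0.43 (0.10 to 0.75, adjusted p = 0.197) and 5 of 7 mice above every baseline mouse. For Snhg1 the value was 0.21 (-0.06 to 0.47, adjusted p = 0.534), for Snhg12 0.16 (-0.21 to 0.52, adjusted p = 0.789) and for Snhg3 0.06 (-0.33 to 0.44, adjusted p = 0.952).

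Between day 7 and day 14 none of the 8 genes differed in edgeR, none had an unadjusted p under 0.05 and none was called by DESeq2, whereas 1.29% of all genes were called. The fitted differences ran from -0.25 for Snhg12 to 0.10 for Snhg3 on the log2 scale, and the interval of Snhg12 reached from -0.60 to 0.10. For Gas5 the interval of the difference was -0.22 to 0.07, and for Snhg8 it was -0.25 to 0.23. Whether Snhg5, called at day 7 and not at day 14, differed between these days is answered by its difference of -0.22 with an interval of -0.60 to 0.15 (adjusted p = 0.628), which did not pass the test.

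These changes are relative to the other genes of each library. When counts were scaled to the library total with no correction for composition, the median of all tested genes itself shifted by 0.47 at day 7 and by 0.22 at day 14 on the log2 scale. All 8 members were then called higher at day 7, including Snhg3 at 0.40 (adjusted p = 0.0398), along with most genes: of 9336 genes called, 9272 were higher, against 1081 of 2264 under TMM scaling and 1885 of 2653 when the 20 most abundant genes were left out of the total. At day 14 total count scaling called 6 of 8, while 3015 of all 12195 tested genes were called higher. The order of the members was as before. A change of library scaling moves all genes by nearly the same amount, so the unchanged order is no separate support. The direction of Snhg3 at day 7 was negative under TMM scaling and positive under total count scaling, also when the 20 most abundant genes were left out of the total (0.03, adjusted p = 0.962), so no direction is given for it.

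**Figure D3:**
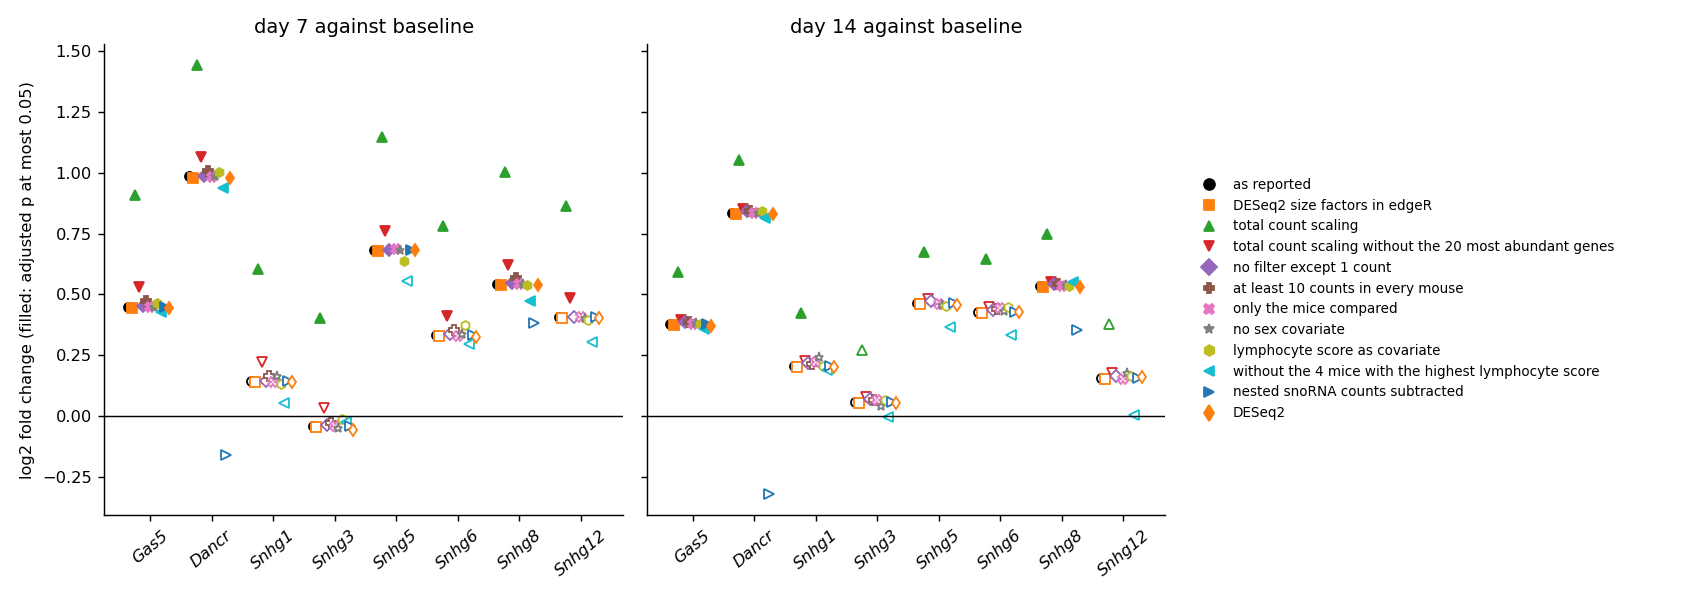
Log2 fold change (vertical axis) of each host gene at day 7 and day 14 under the reported fit and 11 alternatives, given by marker shape and color. Filled markers passed an adjusted p of 0.05. Total count scaling (green triangles) lifts every gene, and subtraction of the nested snoRNA (blue triangles pointing right) moves Dancr from 0.98 to -0.16 at day 7.

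The rise in the Dancr count followed Snora26. Snora26, an H/ACA snoRNA, lay at 76, 91 and 106 counts (lowest, median and highest mouse) at baseline, 243, 274.5 and 343 at day 7 and 145, 220 and 284 at day 14. Dancr lay at 83, 100.5 and 115 counts at baseline, 255, 286 and 359 at day 7 and 150, 230 and 295 at day 14. In each of the 23 mice the Snora26 count was at or below the Dancr count, and it made up 87.2% to 98.3% of it. Within groups the log2 ratio of Snora26 to Dancr had an SD of 0.0277, while separate counts of these sizes would give 0.162 from counting error alone. The Dancr and Snora26 counts are therefore not independent measures, as when a fragment of the snoRNA is also counted for the host.

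With Snora26 subtracted, 7, 8.5 and 12 counts were left for Dancr at baseline, 6, 11 and 23 at day 7 and 5, 10 and 12 at day 14. On the CPM scale the remainder had means of 1.28 ± 0.177 (SD, n = 8), 1.14 ± 0.462 (n = 8) and 1.03 ± 0.266 (n = 7), and the groups overlapped. The log2 fold change of the remainder was -0.16 ± 0.24 (SE) at day 7 (adjusted p = 0.681, edgeR) and -0.32 ± 0.26 at day 14 (adjusted p = 0.655). No change of Dancr outside Snora26 was detected, with 5 to 23 counts left per mouse. Subtraction was added after the data had been seen.

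Snhg8 holds its snoRNA in the same way, but Snora24 made up 13.8% to 49.2% of its count, and the SD of their log2 ratio (0.412) was near that of separate counts (0.465), so the values do not show whether Snora24 fragments are in the Snhg8 count. If they are and are taken out, Snhg8 lay at 2.17, 3.57 and 4.34 CPM at baseline, 3.34, 4.43 and 5.11 CPM at day 7 and 3.65, 3.89 and 6.45 CPM at day 14. These groups overlapped. The log2 fold change became 0.38 (adjusted p = 0.0695, edgeR) at day 7 and 0.35 (adjusted p = 0.303) at day 14. With both subtractions the calls were 2 of 8 at day 7 (Gas5 and Snhg5) and 1 of 8 at day 14 (Gas5). In that fit, 1079 of all 12195 tested genes were called higher at day 7 and 126 at day 14. Gas5, Dancr and Snhg8, the 3 genes called at both days, are the 3 members whose RefSeq-linked transcript runs over a nested snoRNA, a feature looked up after the values had been seen. Other annotated transcripts of Snhg1, Snhg3, Snhg5 and Snhg12 also have an exon over a nested snoRNA, and these genes were not called at both days. The annotation used for counting is not given, and whether such overlap bears on the calls was not tested. For Gas5 those snoRNAs could not be subtracted, and their part in its rise was not tested.

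**Figure D4:**
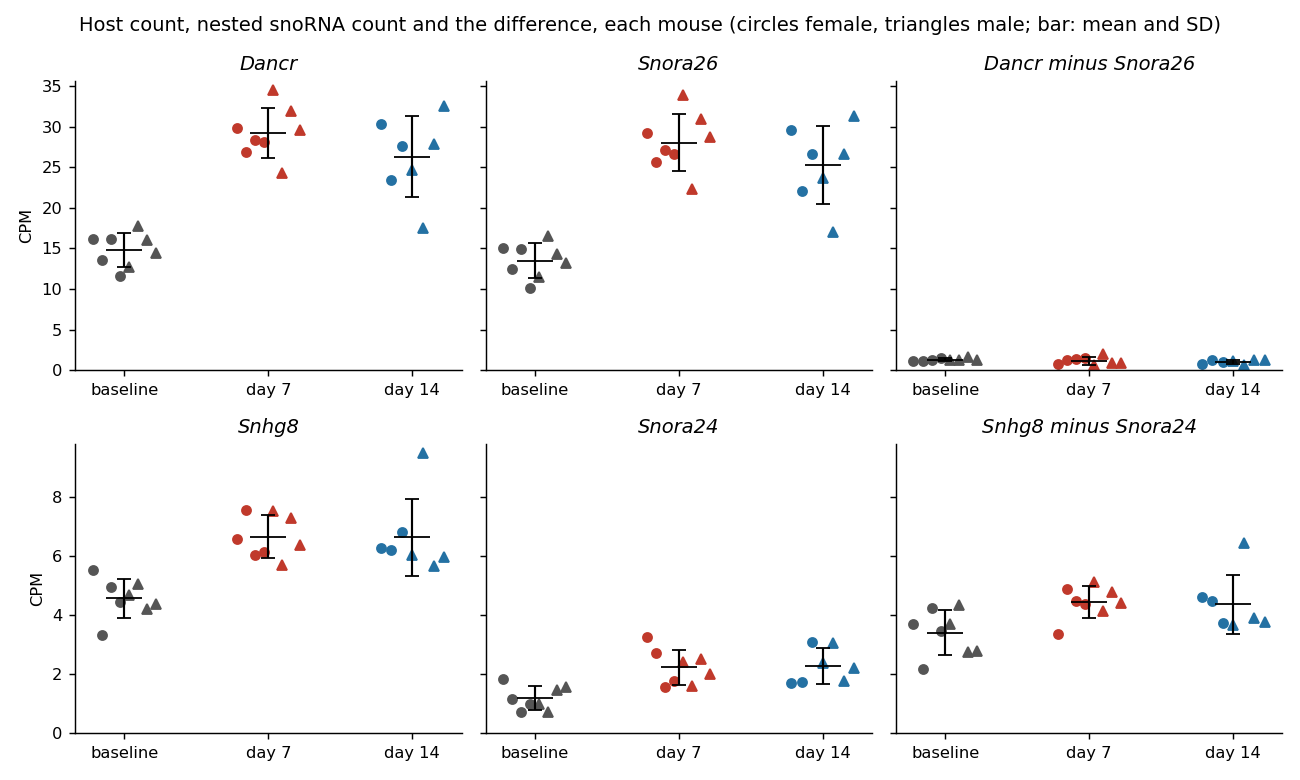
Levels in CPM (vertical axis, from 0) in every mouse for Dancr, Snora26 and their difference (upper row) and for Snhg8, Snora24 and their difference (lower row), with circles for female and triangles for male mice and bars for mean and SD. Dancr and Snora26 move together, and their difference stays between 0.602 and 2.02 CPM at day 7, against 1.07 to 1.61 CPM at baseline.

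In Snhg1 and Snhg12 the relation was the opposite. Snord22, the C/D snoRNA measured for Snhg1, had 836 to 1977 counts per mouse against 42 to 134 for Snhg1, and the 3 H/ACA snoRNAs of Snhg12 each exceeded the Snhg12 count in all 23 mice. Most fragments of these snoRNAs were thus not counted for the host.

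Of the 8 nested snoRNAs that could be tested, 6 rose at day 7, against 8.86% of all tested genes called higher, and 5 at day 14, against 1.05%, and none fell. Snora26 had log2 fold changes of 1.06 at day 7 (adjusted p = 3.71e-07) and 0.91 at day 14 (adjusted p = 4.94e-05), and Snora24 had 0.92 (adjusted p = 0.00518) and 0.95 (adjusted p = 0.0341). In Snhg12, Snora16a rose by 0.56 and 0.82 at these days (adjusted p = 0.00223 and 0.000440), and Snora61 by 0.34 and 0.44 (adjusted p = 0.0269 and 0.0386). Snora44 had 0.27 at day 7 (adjusted p = 0.190) and rose by 0.61 at day 14 (adjusted p = 0.0305). Snord47 in Gas5 rose by 0.57 at day 7 (adjusted p = 0.0495) and had 0.75 at day 14 (adjusted p = 0.0656), and Snord87 in Snhg6 rose by 0.81 (adjusted p = 0.0184) and had 0.64 (adjusted p = 0.239). Snord22 in Snhg1 had 0.09 and 0.07 (adjusted p = 0.460 and 0.780). All of these are edgeR values adjusted over all tested genes. They rest on sequencing alone. The study reported that RT-qPCR, run for Snora16a, Snora41 and Snora52, did not bear out the differential expression of snoRNAs.

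**Figure D5:**
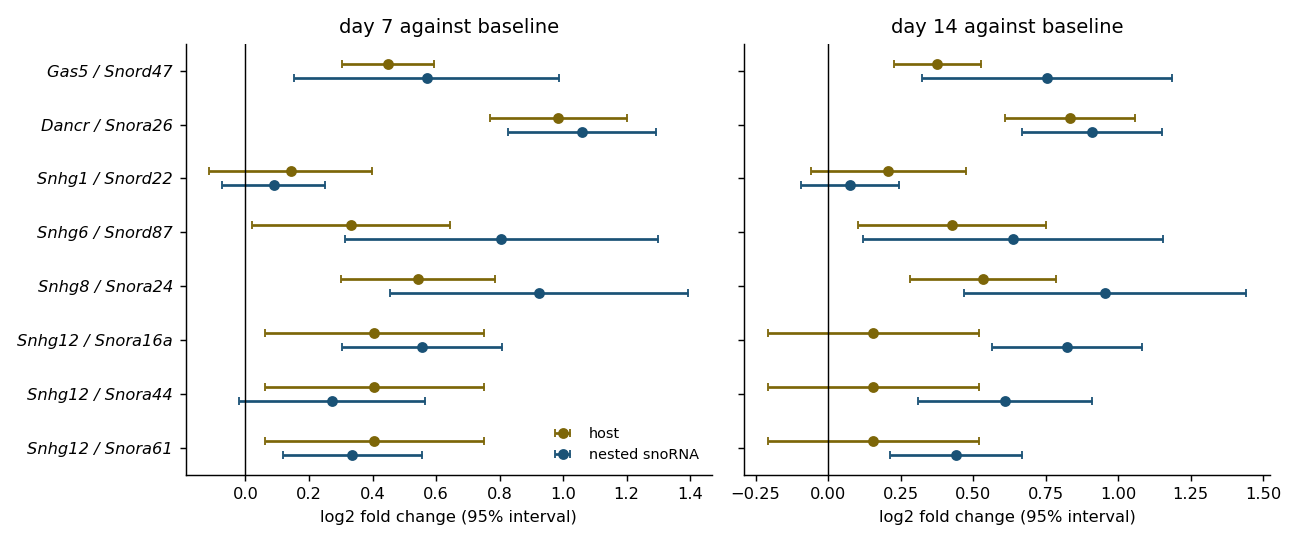
Log2 fold change against baseline with 95% intervals (horizontal axis) of each nested snoRNA and its host at day 7 (left) and day 14 (right). At day 14 the 3 snoRNAs of Snhg12 lie between 0.44 and 0.82 while Snhg12 lies at 0.16.

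To ask whether snoRNA and host changed to the same degree, the log2 ratio of the nested snoRNA count to the host count was compared between groups with an exact two-sided permutation test, adjusted over 132 tests (44 host genes of any kind, 3 comparisons). In Snhg12 the ratio was 3.35 ± 0.152 (SD, n = 8) at day 7 and 3.84 ± 0.294 (n = 7) at day 14, a difference of 0.49 (adjusted p = 0.00424). Leaving out any 1 mouse kept this call (adjusted p at most 0.0103). Among the 38 hosts outside the 8 genes, 1 passed as higher and 6 as lower between these days. Their median difference was -0.13. Against baseline (3.44 ± 0.504, n = 8) the ratio at day 14 differed by 0.40 (exact permutation test, adjusted p = 0.150), or by 0.53 (adjusted p = 0.0357) without baseline mouse 2, whose Snhg12 count of 9 was the lowest of all mice.

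In Gas5, Snhg1, Snhg6 and Snhg8 the ratio passed in no comparison. Snhg6 had a difference of 0.46 at day 7 (exact permutation test, adjusted p = 0.136), which became 0.57 (adjusted p = 0.0473) without baseline mouse 3. Snhg8 had 0.35 (adjusted p = 0.201) and Gas5 0.14 (adjusted p = 0.559). Snhg1 had -0.06 (adjusted p = 0.783). The Dancr ratio passed at day 7 (0.07, adjusted p = 0.00394) and day 14 (0.08, adjusted p = 0.00147), but since these counts are not independent, that is no separate measure of Dancr. Among the 38 other hosts, most of them coding for proteins, the ratio passed as higher in 28 at day 7 and in 27 at day 14, with median differences of 0.62 and 0.55. The members' medians over 6 hosts were 0.11 and 0.28, and the difference between the members and other hosts was not tested.

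No member differed between male and female mice in edgeR. Snhg1 was the single gene with an unadjusted p under 0.05, with a male minus female log2 difference of 0.33 (adjusted p = 0.194), none was called by DESeq2, and 0.574% of all genes were called. Snhg1 lay at 7.88 ± 1.05 CPM in female (SD, n = 4) and 11.8 ± 0.594 CPM in male mice (n = 4) at day 7, with 8.53 ± 1.36 and 9.03 ± 2.27 CPM at baseline. Its male change minus female change at day 7 was 0.50 on the log2 scale (adjusted p = 0.916). No member passed that interaction test at day 7, where 1 member had an unadjusted p under 0.05 and DESeq2 called none, and 0.00773% of all 12933 genes fitted were called. At day 14 no member passed and none had an unadjusted p under 0.05, DESeq2 called none, and 0.0% of all genes were called in edgeR (473 at an unadjusted p under 0.05, none in DESeq2).

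Other non-coding snoRNA hosts were examined as the nearest relatives. Of 15 listed, 12 were tested, and 3 rose at day 7 (none fell) and 1 at day 14. Over all tested genes, 8.86% were called higher at day 7 and 1.05% at day 14. The 3 were Rian, Snhg14 and Meg3, imprinted transcripts that carry or neighbor large snoRNA or microRNA clusters. Rian had a log2 fold change of 1.01 ± 0.13 (SE, adjusted p = 8.16e-06, edgeR) at day 7, Snhg14 had 0.69 ± 0.17 (adjusted p = 0.00558) and Meg3 had 0.39 ± 0.10 (adjusted p = 0.00770). Meg3 was also the gene that rose at day 14, by 0.45 ± 0.10 (adjusted p = 0.0198). The other 9, which include Zfas1, Snhg15 and Snhg17, did not pass at either day, and the median of the 12 was 0.33 at day 7 and 0.20 at day 14.

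Genes that share the terminal oligopyrimidine start had more members called lower than higher at day 7. Over all 12195 tested genes, 2264 were called at day 7, 1081 of them higher and the rest lower. At day 14, 192 were called, 128 of them higher. Among 81 cytosolic ribosomal protein genes tested, 37 fell and 1 rose at day 7 (median -0.14 on the log2 scale), and 1 fell and 1 rose at day 14. Rpl10 fell by 0.57 (adjusted p = 2.09e-06, edgeR) and Rpl37 fell by 0.47 (adjusted p = 5.11e-07). Of 18 other translation genes of this class, 12 fell and 1 rose at day 7 (median -0.27), among them Eef2, the translocation elongation factor, which fell by 0.73 (adjusted p = 1.45e-08), and Eef2 alone fell at day 14 (-0.26, adjusted p = 0.0437). Of 63 protein-coding snoRNA hosts, a list that shares Eef2, Tpt1, Rpl10 and other genes with these, 19 fell and 5 rose at day 7, the latter including Taf1d at 0.51 (adjusted p = 0.000171), and 1 fell at day 14. The 5 that rose were near the 8.86% called higher over all tested genes.

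Proteins that bind snoRNAs or remove host RNA changed in few cases. Of 19 snoRNP and assembly proteins, 2 rose at day 7, near the 8.86% of all tested genes called higher. These were Nop58, a core C/D protein, by 0.49 (adjusted p = 0.00102, edgeR) and Nop10, a core H/ACA protein, by 0.22 (adjusted p = 0.0322). None was called at day 14. Of 15 nonsense-mediated decay factors, Upf1, the central helicase, fell by 0.37 (adjusted p = 0.00112) and Smg6, an endonuclease, fell by 0.24 (adjusted p = 0.0413) at day 7, and none was called at day 14. Over all 12195 tested genes, 2264 were called at day 7, 1081 of them higher and the rest lower. Neither count of 2 is therefore read as a result about its list.

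Markers of other cell types moved with the same groups. For scale, 2264 of all 12195 tested genes were called at day 7, 1081 of them higher. At day 14, 192 were called, 128 of them higher. Of 9 macrophage markers, 8 rose at day 7 and none at day 14, and their summed level lay at 53.3 to 206 CPM at baseline, 130 to 306 CPM at day 7 and 89.4 to 174 CPM at day 14. Of 7 fibroblast markers, 6 rose at day 7 and 2 at day 14, with sums of 319 to 632, 599 to 1145 and 504 to 712 CPM. Of 9 acinar markers, 7 fell at day 7 and 4 at day 14, with sums of 292305 to 424263, 167808 to 258048 and 269498 to 321862 CPM. Islet (3 of 6), erythroid (4 of 5), ductal (2 of 5) and proliferation (2 of 6) markers also had members that rose at day 7, 1 of 5 endothelial markers fell, and none of 4 adipocyte or 5 tested lymphocyte markers was called. Of the 4 erythroid markers that rose, Hba-a1 and Hba-a2 had the same fitted values, so they are not separate measures. Neutrophil markers were too low to test. No marker was at 0 in all mice. The part of any cell type in the host gene results was not tested, and in whole tissue fewer cells of a type and less RNA per cell cannot be told apart.

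Patterns across mice were compared by the Pearson correlation of log2 CPM over all 23 mice, as a description, since the mice share the group differences. The gene most like Dancr was Snora26 (r = 0.999, and 0.996 after group and sex means were removed). It was followed by Snora41 (0.947, residual 0.798), another H/ACA snoRNA, and by the protein-coding Ugt2b34 (0.939, residual 0.702). Gas5 was most like Dancr (0.852, residual 0.429), Snora41 (0.845, residual 0.443) and Snora26 (0.842, residual 0.387). Snhg8 was most like Rnu11 (0.829, residual 0.511), a minor spliceosome RNA, then Ecm2 (0.810, residual 0.600) and Snora33 (0.784, residual 0.308). For the other 5 genes the best matches were protein-coding: Cse1l for Snhg1 (0.780, residual 0.797), Abhd11 for Snhg3 (0.735, residual 0.771), Nmi for Snhg5 (0.795, residual 0.623), Pnpla8 for Snhg6 (0.788, residual 0.716) and Pibf1 for Snhg12 (0.777, residual 0.746).

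Overlapping genes limit some of these values. Snhg3 overlaps Rcc1 on the same strand over 5592 of its 5673 bases, so its counts are uncertain, and Rcc1 itself had log2 fold changes of 0.29 (adjusted p = 0.428, edgeR) at day 7 and -0.14 (adjusted p = 0.894) at day 14. Gas5 overlaps Zbtb37 by 428 bases and Snhg6 overlaps Mcmdc2 by 127 bases, both on the opposite strand, and the strand setting of the counting is not given in the sources used here. Zbtb37 had 0.25 (adjusted p = 0.275) and 0.29 (adjusted p = 0.472). In the tables, 23 tested symbols in 11 sets had the same counts in all 23 mice, which separate counting of each fragment would not give.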

How the data were processed

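The authors prepared stranded, ribosomal RNA depleted total RNA libraries. Per the labels and methods, they trimmed reads with Trim Galore and Cutadapt, aligned them to mm10 with STAR 2.5.2a and counted uniquely mapped fragments per gene with featureCounts. The gene annotation and the settings for strand and overlapping genes are not given in the sources used here. The deposited values are raw counts per gene symbol, 1 table per mouse.

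Counts were fitted in edgeR 4.0.16 (R 4.3.3) with TMM scaling, filterByExpr by time group, the robust quasi-likelihood F test and terms for time group and sex over all 23 mice, which gave 12195 tested symbols. The study's methods used DESeq2, which was run as an alternative (1.42.0). The interaction was fitted with 6 sex and time groups (12933 symbols). P-values were adjusted by Benjamini-Hochberg over all tested symbols and a call was an adjusted p of at most 0.05. CPM used TMM library sizes. Log2 CPM for correlations used a prior count of 2. Ratios used a pseudocount of 0.5 and exact two-sided permutation tests. The edgeR fit and the permutation test were tested on simulated data. Intervals give the uncertainty of the fitted difference, estimated from the spread between mice, which were separate animals. Reads carry no molecular identifiers. The number of counts (7059890 to 9567446 per mouse) limits the precision for low genes. In the mapping statistics that the study reported, every baseline library had a higher duplicate rate than every day 7 library. Whether such differences between the libraries bear on the results was not tested.

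The members and gene lists were chosen with earlier results of these data known. Named genes were all 8 members, their tested nested snoRNAs, up to 4 called genes of each list with the largest change, and for each member up to 3 genes most like it. Symbols in the tables were matched to newer names where needed (for example Snhg15 and Zfas1). Snord99 in Snhg12 had too few counts to be tested. Alternatives were DESeq2, its size factors, total count scaling with and without the 20 most abundant genes, other filters, only the compared mice, no sex term, a lymphocyte score as covariate and leaving out each mouse. After the data were seen, 2 were added: the 4 mice with the highest lymphocyte scores left out, and nested snoRNA counts subtracted. GENCODE vM21 gave positions and sequences.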

Additional observations from a re-analysis of the deposited data

Results flagged for a closer look

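Among 48 groups of values (8 host genes and 8 nested snoRNAs at 3 time points), 2 had 1 mouse set far apart from the rest by Dixon's criterion, which chance alone reaches in about 1 of 20 groups. Snhg1 at day 14 was lowest in mouse 17, at 5.94 CPM, while the median of the 7 mice was 10.8 CPM. Snhg8 at day 14 was highest in mouse 22, at 9.49 CPM, against a median of 6.20 CPM. Neither mouse changed a call of these genes when it was left out.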

How the results depend on the processing

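The count of members called higher at day 7 was 4 and at day 14 it was 3. Total count scaling gave 8 and 6, with 9272 and 3015 of all 12195 tested genes called higher. It also called 3 members lower at day 14 than at day 7 (Gas5, Dancr and Snhg12), where TMM scaling called 0. The median of all genes in that comparison was -0.25, and 52 of 4107 called genes were higher. Under this scaling the median of all genes shifted too, and Snhg3 at day 7 turned from -0.04 to 0.40. Subtraction of nested snoRNA counts gave 2 and 1, and turned Dancr to -0.16 at day 7 and -0.32 at day 14. Of all 12195 tested genes, 1079 and 126 were then called higher. Scaling to the total without the 20 most abundant genes gave 6 at day 7, with Snhg6 (0.41, adjusted p = 0.0439) and Snhg12 (0.49, adjusted p = 0.0408) added, and 3 at day 14. Of all 12195 tested genes, 1885 and 154 were then called higher. Without the 4 mice with high lymphocyte scores Snhg5 at day 7 was not called. The other alternatives left these counts within 1.5 times, and leaving out each mouse gave 4 to 5 at day 7, 2 to 3 at day 14 and 0 for the comparison of days, for sex and for the interaction. The snoRNA to host ratios passed in 3 of the members' 18 tests, and in 3 to 4 when each mouse was left out. The 3 were Dancr at day 7 and day 14, where the counts are not independent, and Snhg12 between these days. Among the 38 other hosts, 28 passed as higher at day 7 and 27 at day 14. Between these days 1 of them passed as higher and 6 as lower. The filter of at least 10 counts in every mouse removed Snhg5 and Snhg12, so it gives no value for them. Total count scaling gave 9336 called genes at day 7 and 3034 at day 14, against 2264 and 192. At day 14, all genes called numbered 306 when only the compared mice were fitted and 422 with the lymphocyte score as covariate. Between day 7 and day 14 they numbered 157 under TMM, 4107 under total count scaling, 437 with the score and 322 in DESeq2. Snhg3, Snhg5 and Snhg12, with medians of 17 to 43 counts in each group, are most limited by depth. No paired analysis was possible because each mouse number occurs in 1 group only.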
